A study of Homo sapiens with 16 samples.

Results

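The BCL2 family decides at the outer membrane of mitochondria whether a cell enters apoptosis. Pro-survival members hold the pore-forming effectors in check, and BH3-only members respond to stress by binding the pro-survival proteins or by activating the effectors directly. Once the effectors oligomerise, cytochrome c leaves the mitochondria and caspases are activated. In prostate epithelium, androgen withdrawal is a classical trigger of cell death, and the family has long been studied as a mediator of survival under antiandrogens.

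Described here are 10 BCL2 family genes, taken by symbol from a TPM table of 60642 genes. The rule itself used no values, but the genes were chosen with earlier results of these data known. They are the pro-survival genes BCL2, BCL2L1 and MCL1, the effectors BAX and BAK1, and the BH3-only genes BBC3, PMAIP1, BCL2L11, BID and BIK. TPM is a gene's estimated reads per unit of length, scaled to a fixed total per library, so levels of different genes can be compared.

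The RNA came from LNCaP cells, an androgen-responsive human prostate cancer (PCa) line. Before treatment all cells grew for 72 h with 5% fetal bovine serum and then for 48 h with 5% charcoal-stripped serum, a serum low in androgen. Treatment lasted 48 h. VEH received both solvents, ethanol and DMSO, and DHT received 10 nM dihydrotestosterone, the most potent natural androgen. The other groups received 10 µM of an antiandrogen, which competes with the hormone for its receptor. These were bicalutamide (BIC.VEH and BIC.DHT), enzalutamide (ENZ.VEH and ENZ.DHT) or apalutamide (APA.VEH and APA.DHT), without and with 10 nM DHT. Each of the 8 groups had 2 libraries, called biological replicates 1 and 2 in the labels. Where these came from separate cultures is not said, so p-values measure the spread between these libraries. No protein, caspase or viability measurement was part of the data.

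Of the 10 genes, 9 had at least 2 libraries at a TPM of 1 or more and were tested among the 16636 genes that did so. BCL2 did not and is given by its values alone. The 7 markers of luminal prostate epithelium were all expressed (lowest value 68.8 TPM, for EPCAM), and 7 of 11 markers of other cell types had a median of 0. COL1A1, a collagen gene on the list of other cell types, was present at 11.4 to 32.6 TPM, while the stromal markers COL1A2 and DCN were at 0 in 15 and 13 of the 16 libraries. As a check of the treatment, KLK3, the gene of prostate-specific antigen, had 53.04 and 24.01 TPM in VEH and 4102 and 2422 TPM in DHT. The DHT libraries stood at the extremes of the mitochondrial share of TPM, with 22.3% in replicate 1 and 14.7% in replicate 2. Whether this share had a part in the values below was not tested.

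Over the 16 libraries the highest levels among these 10 genes were those of 2 pro-survival genes. BCL2L1, which encodes BCL-XL, averaged 117 TPM and MCL1 averaged 98.4 TPM. Next came BAX at 65.8 TPM and BAK1 at 20.7 TPM. The BH3-only genes were lower, with BID at 15.5, BIK at 15.1, BCL2L11 at 12.8, BBC3 at 8.66 and PMAIP1 at 4.85 TPM, and BCL2 itself stood last at 0.639 TPM. Each step between neighbours in this order held in 11 to 16 of the 16 libraries. The least secure step was BID over BIK, which held in 11 of 16 libraries, whereas BAX exceeded BAK1 and PMAIP1 exceeded BCL2 in 16 of 16.

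**Figure D1:**
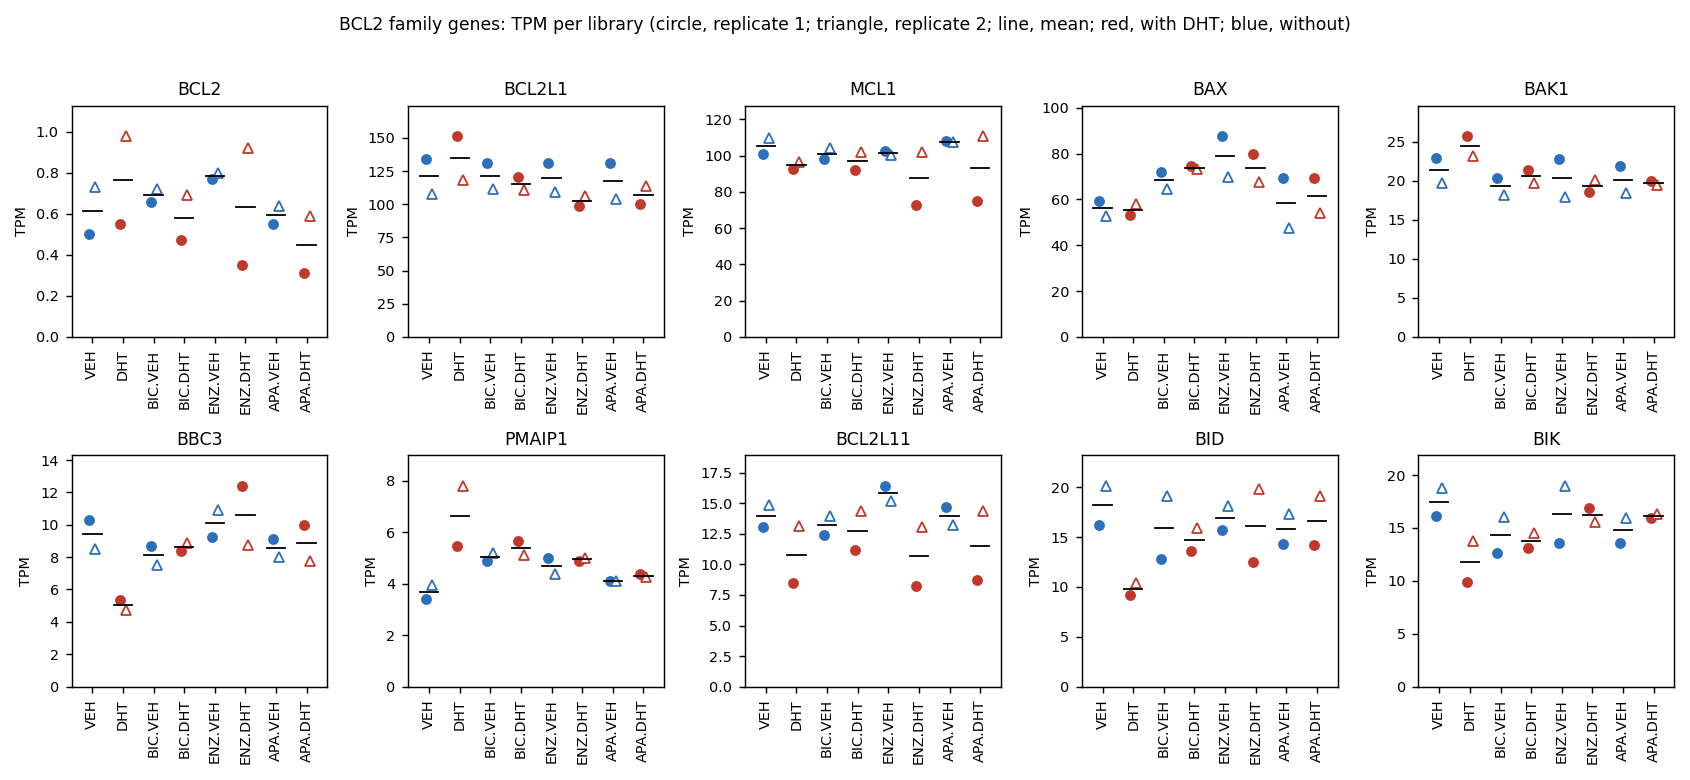
TPM (vertical axis, starting at 0) of the 10 BCL2 family genes in each of the 8 groups, with 1 panel per gene. Circles are replicate 1, triangles replicate 2, lines the mean of both, red the groups with DHT and blue those without. The BBC3 and BID panels show both DHT libraries below all others, and the PMAIP1 panel shows the VEH libraries lowest and the DHT group highest.

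The positions given here are those of RefSeq on GRCh38.p14. The 2 genes that passed the main test on DHT treatment were BBC3 (chromosome 19, 47220824 to 47232860), which encodes PUMA, and PMAIP1 (chromosome 18, 59899996 to 59904305), which encodes NOXA. Both are BH3-only genes best known as p53 targets. BBC3 and BID overlap annotated microRNA genes, BCL2L1 overlaps its antisense gene BCL2L1-AS1 and LOC124904883, and BCL2 overlaps LOC124904379. Whether the counting used strand was not stated. Promoter stretches of BBC3 and PMAIP1 are printed because these 2 genes moved in opposite directions. The 250 bases before each start site are shown, 5′ to 3′ on the strand of the gene, with capitals marking E-boxes (CACGTG) and GC boxes (GGGCGG or, on the other strand, CCGCCC). The BBC3 stretch is on the minus strand and the PMAIP1 stretch on the plus strand. The start site used for BBC3 lies inside the gene span given above, so part of its stretch falls within that span. The PMAIP1 stretch ends just before its gene span.
BBC3, chr19:47232668-47232917: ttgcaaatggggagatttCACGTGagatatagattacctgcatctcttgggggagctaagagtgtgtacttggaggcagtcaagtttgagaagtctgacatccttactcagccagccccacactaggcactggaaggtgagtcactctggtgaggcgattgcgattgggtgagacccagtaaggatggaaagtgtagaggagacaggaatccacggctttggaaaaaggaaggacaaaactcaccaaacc
PMAIP1, chr18:59899746-59899995: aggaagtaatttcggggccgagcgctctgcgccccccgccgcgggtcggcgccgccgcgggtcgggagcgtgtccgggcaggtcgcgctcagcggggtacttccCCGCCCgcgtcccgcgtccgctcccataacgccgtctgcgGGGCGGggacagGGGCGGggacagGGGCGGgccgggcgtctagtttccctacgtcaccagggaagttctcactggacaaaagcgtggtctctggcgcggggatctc

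The PMAIP1 stretch was 72.8% G or C and held 4 GC boxes, whereas the BBC3 stretch was 49.2% G or C and held 1 E-box and no GC box. Motifs were counted on both strands of windows from 250 bases before to 50 after the start. Windows were available for 8 of the 10 genes, 13 in all because BCL2L1 had 2 and BID had 5. GC boxes were in 9 of these 13 windows (of BAK1, BAX, BCL2L1, BCL2L11, BID and PMAIP1) and in 45.0% of all 35116 windows. E-boxes were in 4 of the 13 (of BAX, BBC3 and BID) and in 7.26% of all. Windows of BID overlap one another, so the same GC box or E-box can count in more than 1 of the 13. The androgen receptor half-site AGAACA was in 0 of the 13 windows and in 14.8% of all. The p53 half-site, searched in its 10-letter consensus form, was found in 1 of the 13 windows, that of BAK1, and in 6.63% of all, and the FOXO site GTAAACA in 1, that of BCL2L11, and in 3.42% of all. These are matches of letters, not measured binding.

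With DHT alone, the question was whether androgen moved the balance between death-promoting and pro-survival transcripts. BBC3 fell and PMAIP1 rose, BID and BIK were lower in both DHT libraries than in either VEH library, and the pro-survival and effector genes showed no called change. At an adjusted p below 0.05, 1 gene was called higher and 1 lower of the 9 tested, against 3.63% and 6.64% of all genes tested (10.3% in either direction). In bulk RNA, a change in every cell cannot be told apart from a change in the share of cells that carry the transcript.

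The pro-survival genes were nearly level between the groups. BCL2L1 (chromosome 20, 31664452 to 31723963) had 134 and 108 TPM in VEH and 152 and 118 TPM in DHT, and these ranges overlapped. The difference was 0.15 on the log2 scale (SE 0.17) with a limma adjusted p of 0.63. MCL1 (chromosome 1, 150574558 to 150579610), whose short-lived protein binds NOXA, had 101 and 110 TPM in VEH and 92.6 and 96.6 TPM in DHT. Both DHT libraries lay below both VEH libraries, but the log2 fold change of -0.15 (SE 0.18) had an adjusted p of 0.66 by limma. BCL2 (chromosome 18, 63123346 to 63320090), the founding member, had 0.50 and 0.73 TPM in VEH and 0.55 and 0.98 TPM in DHT and never exceeded 0.98 TPM in any library. Its replicates lay as far apart as 0.35 and 0.92 TPM, in ENZ.DHT, with replicate 2 the higher in 8 of 8 groups.

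The effectors were also close to level. BAX (chromosome 19, 48954875 to 48961798) had 59.4 and 52.9 TPM in VEH and 53.4 and 57.8 TPM in DHT. The fold change of BAX was -0.01 on the log2 scale (SE 0.19) with a limma adjusted p of 0.98. BAK1 (chromosome 6, 33572552 to 33580276) had 23.0 and 19.8 TPM in VEH and 25.8 and 23.2 TPM in DHT. The 2 DHT libraries had the most BAK1 of all 16 libraries, a position that 10.5% of all genes tested shared, but the difference of 0.19 on the log2 scale (SE 0.15) had an adjusted p of 0.47 by limma. Its annotated pseudogene BAK1P1 had at most 1.26 TPM.

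The BH3-only genes held every call. BBC3 had 10.3 and 8.51 TPM in VEH (mean 9.41 ± 1.27, SD, n = 2) and 5.37 and 4.71 TPM in DHT (mean 5.04 ± 0.47). It fell by 0.78 on the log2 scale (SE 0.19), 1.72-fold, with an adjusted p of 0.023 by limma and 0.0036 with the replicate number as a block. Both DHT libraries lay below the other 14 libraries, whose lowest value was 7.54 TPM, a position that 13.9% of all genes tested shared. The call was lost when any 1 of the 4 libraries was left out (adjusted p from 0.0565 to 0.18) and under median-ratio scaling (log2 fold change -0.66, adjusted p = 0.078), while the direction stayed. With only DHT and VEH in the fit, none of the 9 genes was called (limma adjusted p = 0.104 for BBC3 and 0.166 for PMAIP1, with 1.04% of all genes called).

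PMAIP1 went the other way. It had 3.39 and 3.95 TPM in VEH (mean 3.67 ± 0.40, SD, n = 2), the lowest values of the 16 libraries, and 5.47 and 7.81 TPM in DHT (mean 6.64 ± 1.65). The share of all genes tested with VEH in that position was not counted. The gene rose by 0.70 on the log2 scale (SE 0.16), 1.62-fold, with an adjusted p of 0.021 by limma. The rise leaned on DHT replicate 2, since without it the log2 fold change was 0.47 with an adjusted p of 0.174. The call also ended without either VEH library (adjusted p = 0.159 without replicate 1 and 0.0605 without replicate 2) and held without DHT replicate 1 (0.0159).

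BID, whose protein is cleaved by caspase-8 and links death receptors to mitochondria, was also lower in DHT. BID (chromosome 22, 17734138 to 17774665) had 16.2 and 20.2 TPM in VEH and 9.20 and 10.5 TPM in DHT, and both DHT libraries were below all 14 others (lowest 12.5 TPM). The log2 fold change was -0.82 (SE 0.25) with an adjusted p of 0.060 by limma without the block. With the block the adjusted p was 0.00097. BID was higher in replicate 2 than in replicate 1 in 8 of 8 groups.

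BIK (chromosome 22, 43110750 to 43129712), a BH3-only gene of the endoplasmic reticulum, had 16.1 and 18.8 TPM in VEH and 9.85 and 13.7 TPM in DHT. The groups did not overlap, and the log2 difference of -0.54 (SE 0.20) had an adjusted p of 0.11 by limma and 0.0145 with the block. BCL2L11 (chromosome 2, 111120914 to 111168445) encodes BIM, which binds all pro-survival members. It had 13.1 and 14.8 TPM in VEH and 8.50 and 13.1 TPM in DHT, so that only DHT replicate 1 was clearly lower, and its log2 fold change of -0.37 (SE 0.27) had an adjusted p of 0.43 by limma and 0.20 with the block. With the block, 1 gene was called higher and 3 lower of the 9, against 10.6% and 16.8% of all genes tested (27.4% in either direction).

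In all, 6 of the 9 genes had DHT and VEH libraries that did not overlap (BAK1, BBC3, BID, BIK, MCL1 and PMAIP1), against 56.5% of all genes tested. The median log2 fold change of the 9 was -0.15, beside -0.098 for all genes tested. TPM values are relative to the rest of each library. Of the 11 markers of other cell types, 4 were tested and 1, COL1A1, was called lower. COL1A1 had 32.6 and 25.9 TPM in VEH and 11.4 and 15.6 TPM in DHT (log2 difference -1.07, adjusted p = 0.0036 by limma). The 11 markers summed to 42.5 and 30.1 TPM in VEH and 22.1 and 19.8 TPM in DHT, and without COL1A1 to 9.91 and 4.14 TPM and to 10.7 and 4.21 TPM. The part of these markers in the changes of BBC3, BID and BIK was not tested. Median-ratio scaling moved the median of all genes by 0.107 in this comparison, and under it BAX changed sign to 0.12 and BID and BIK had log2 fold changes of -0.70 and -0.42.

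**Figure D2:**
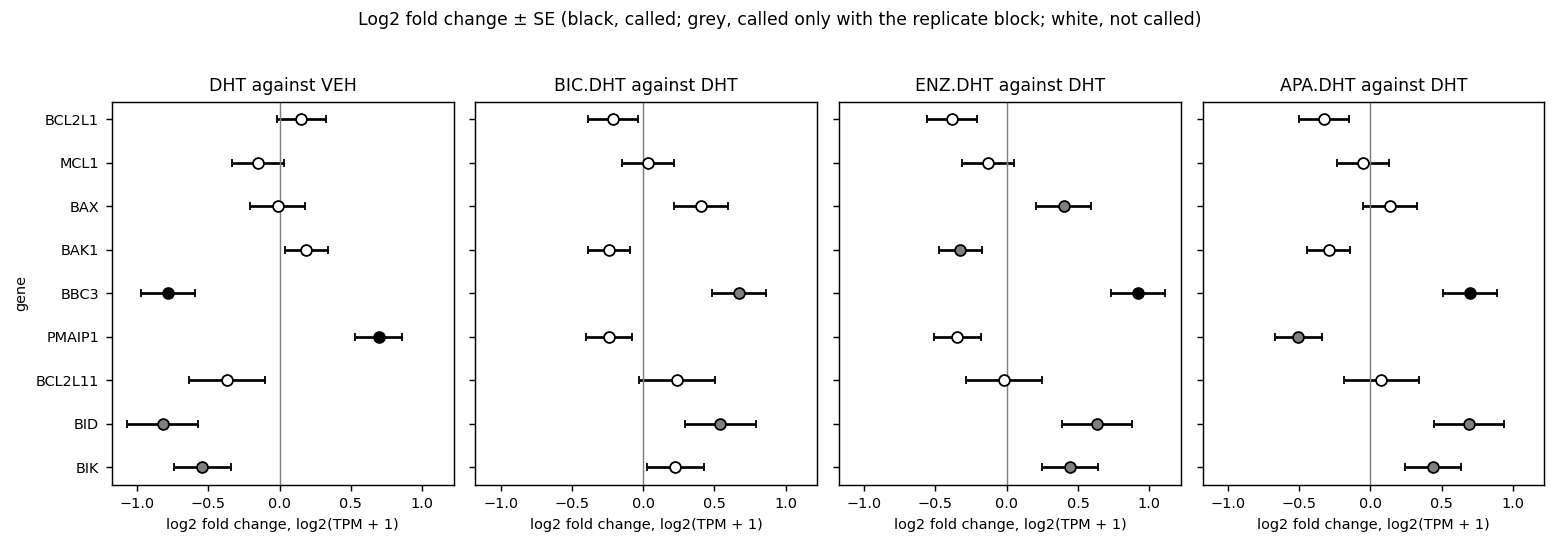
Log2 fold change of log2(TPM + 1) with its SE (horizontal axis) for the 9 tested genes in DHT against VEH and in each antiandrogen plus DHT against DHT alone. Black points were called by limma without the replicate block, grey points only with it, and white points with neither. BBC3 lies at -0.78 in the first panel and at 0.67, 0.92 and 0.70 in the others.

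The next comparisons asked whether an antiandrogen given with DHT returned these genes to the levels seen without DHT. All use the same 2 DHT libraries, as does the comparison above, so the values are given side by side and their likeness is no separate evidence. BBC3 rose against DHT alone with enzalutamide and with apalutamide. BID was higher in all libraries of the 3 combined groups than in DHT, and the pro-survival genes had no called change.

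BBC3 had 8.35 and 8.87 TPM in BIC.DHT, 12.4 and 8.74 TPM in ENZ.DHT and 9.97 and 7.77 TPM in APA.DHT. All 6 libraries lay above the DHT range of 4.71 to 5.37 TPM, and 3 of them lay within the VEH range of 8.51 to 10.3 TPM. Against DHT, BBC3 rose by 0.92 on the log2 scale with enzalutamide (SE 0.19, 1.90-fold, adjusted p = 0.012 by limma). It was 0.70 with apalutamide (1.63-fold, limma adjusted p = 0.044). With bicalutamide it was 0.67, which missed the threshold (limma adjusted p = 0.091) unless the block was used (0.016). The enzalutamide call ended without DHT replicate 2 (adjusted p = 0.0945) or ENZ.DHT replicate 1 (0.108). The apalutamide call ended without DHT replicate 1 (0.108), DHT replicate 2 (0.217) or APA.DHT replicate 1 (0.217), with no filter on low values (0.071) and under median-ratio scaling (0.072). Fits of the 2 compared groups alone called neither (0.229 and 0.316), and 0.0421% and 0% of all genes.

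BID had 13.6 and 15.9 TPM in BIC.DHT, 12.5 and 19.9 TPM in ENZ.DHT and 14.2 and 19.1 TPM in APA.DHT. None of these libraries reached down to the DHT range of 9.20 to 10.5 TPM. Its log2 fold changes against DHT were 0.54, 0.63 and 0.69, none called without the block (limma adjusted p = 0.33, 0.13 and 0.11) and all called with it (0.0195, 0.0043 and 0.0028). BIK had 13.1 and 14.5 TPM in BIC.DHT, which overlapped the DHT range. It had 16.9 and 15.6 TPM in ENZ.DHT and 15.9 and 16.3 TPM in APA.DHT, which did not. The BIK differences with enzalutamide (0.45) and apalutamide (0.44) were called only with the block (limma adjusted p = 0.033 and 0.038).

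PMAIP1 had 5.67 and 5.13 TPM in BIC.DHT, 4.88 and 5.00 TPM in ENZ.DHT and 4.37 and 4.26 TPM in APA.DHT. The enzalutamide and apalutamide groups lay below both DHT libraries but above both VEH libraries. The log2 difference from DHT was -0.24, -0.35 and -0.51 for the 3 drugs in that order, and only the last was called, with the block (limma adjusted p = 0.027, against 0.083 without it) or under median-ratio scaling (0.046). BCL2L11 overlapped the DHT libraries with all 3 drugs. In ENZ.DHT and APA.DHT, as in DHT, replicate 1 was the low one, with 8.24 against 13.1 TPM and 8.73 against 14.3 TPM.

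Among the effectors, BAX did not overlap DHT with bicalutamide or enzalutamide. It had 74.4 and 73.3 TPM in BIC.DHT and 80.0 and 67.6 TPM in ENZ.DHT, above the DHT range of 53.4 to 57.8 TPM, while APA.DHT overlapped it with 69.5 and 53.9 TPM. The log2 differences from DHT were 0.40, 0.40 and 0.14, of which the enzalutamide value was called with the block alone (limma adjusted p = 0.047). BAK1 was lower than in DHT in all 6 libraries, by 0.33 on the log2 scale with enzalutamide (called with the block, limma adjusted p = 0.046).

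Of the pro-survival genes, BCL2L1 had 120 and 111 TPM in BIC.DHT, 98.8 and 106 TPM in ENZ.DHT and 99.9 and 114 TPM in APA.DHT. The latter 2 groups lay below both DHT libraries, with log2 differences of -0.39 and -0.33 that were not called with or without the block (limma adjusted p = 0.052 and 0.095 with it). MCL1 overlapped DHT with every drug. Its replicates parted in ENZ.DHT (72.9 and 102 TPM) and APA.DHT (75.0 and 111 TPM), where replicate 1 had the lowest MCL1 of all libraries. The same 2 libraries, with DHT replicate 1, also had the lowest BCL2L11.

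Counted over the 9 genes, bicalutamide with DHT gave 0 calls against DHT (1 gene at an unadjusted p below 0.05, BBC3), enzalutamide 1 and apalutamide 1, all higher. The share of all genes tested that was called was 3.13%, 9.65% and 8.36%, with 4.74% and 4.25% called higher for the last 2 drugs. Under the block, 2, 5 and 4 of the 9 were called, against 13.3%, 29.2% and 27.3%. Libraries did not overlap for 4, 7 and 6 of the 9 genes, against 47%, 50.9% and 47.9% of all. COL1A1 was higher than in DHT by 0.46, 0.84 and 0.70 on the log2 scale, called with enzalutamide and apalutamide (adjusted p = 0.24, 0.015 and 0.035 by limma). The 11 markers of other cell types summed to 27.4 and 20.2 TPM in BIC.DHT, 33.2 and 25.4 TPM in ENZ.DHT and 27.6 and 27.0 TPM in APA.DHT. Their part in the values of BBC3, BID and BIK was not tested.

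**Figure D3:**
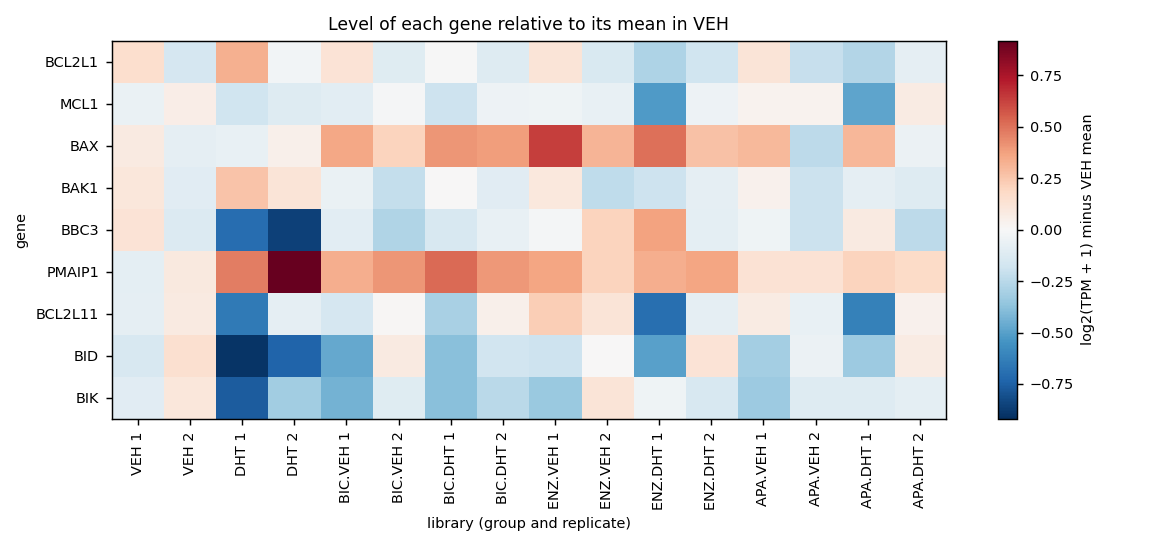
Level of the 9 tested genes in the 16 libraries (columns, by group and replicate) as log2(TPM + 1) minus the gene's mean in VEH, blue for lower and red for higher. The DHT columns are blue for BBC3, BID and BIK and red for PMAIP1, and the BAX row is red in the BIC and ENZ groups.

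Without DHT, no drug gave a called change in these genes. Using limma, there were 0 calls among the 9 genes in BIC.VEH, ENZ.VEH and APA.VEH against VEH, where 0%, 0% and 0.00601% of all genes tested were called (0.018%, 0% and 0.012% with the block). Libraries did not overlap VEH for 3, 3 and 2 of the 9 genes, against 21.4%, 17.3% and 19.6% of all. BAX in ENZ.VEH (87.7 and 69.9 TPM, against 59.4 and 52.9 TPM in VEH) was higher by 0.48 (unadjusted p = 0.030, adjusted p = 1, limma). PMAIP1 in BIC.VEH (4.87 and 5.18 TPM) was higher by 0.37 (unadjusted p = 0.045, adjusted p = 1, limma). These were the only unadjusted p-values below 0.05 among the 27 values, with the block as without it. All 6 BIC, ENZ and APA libraries without DHT had more PMAIP1 than both VEH libraries, though in APA.VEH by little (4.11 and 4.10 TPM, log2 difference 0.13). The share of all genes tested for which all 6 lay above VEH was not counted.

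Within a drug, no response of the family to DHT was detectable. Comparing each drug with and without DHT, limma called 0 of 9 genes each time with or without the block, 0 had an unadjusted p below 0.05 (1 with the block, under enzalutamide), and 0%, 0.00601% and 0.00601% of all genes tested were called (0%, 0.00601% and 0.024% with the block). BBC3 differed by 0.08, 0.05 and 0.04 on the log2 scale under bicalutamide, enzalutamide and apalutamide, with 95% confidence intervals of -0.34 to 0.49, -0.37 to 0.46 and -0.38 to 0.45. These intervals do not reach the estimate of -0.78 without a drug, but that estimate has its own 95% confidence interval of -1.20 to -0.37. Whether the response differed was tested directly as an interaction. That difference was 0.86, 0.83 and 0.82 for BBC3. It was not called without the block (limma adjusted p = 0.209, 0.187 and 0.194) and was called with it (0.040, 0.036 and 0.037). For BID the differences of 0.74, 0.72 and 0.88 behaved likewise (limma adjusted p = 0.511, 0.426 and 0.301, and 0.038, 0.030 and 0.014 with the block). Without the block 0 of 9 interactions were called for each drug, beside 0.986%, 1.63% and 1.42% of all genes tested, and 2, 2 and 4 genes had an unadjusted p below 0.05. With it 2 of 9 were called for each, beside 6.39%, 9.91% and 10.1%.

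Enzalutamide and apalutamide share a diarylthiohydantoin core that bicalutamide lacks, and all 3 were used at the same 10 µM for 48 h. In the 6 comparisons of 1 drug with another, 3 with DHT and 3 without, limma called none of the 9 genes with or without the block. Of all genes tested, between 0% and 0.012% were called without it. For enzalutamide against bicalutamide, apalutamide against bicalutamide and apalutamide against enzalutamide, the shares with the block were 0.012%, 0.0541% and 0.00601% with DHT and 0.00601%, 0.0842% and 0.00601% without. BBC3 was higher in ENZ.DHT than in BIC.DHT by 0.25 (95% confidence interval -0.16 to 0.67) and differed between APA.DHT and BIC.DHT by 0.03 (-0.39 to 0.45). PMAIP1 was lower in APA.DHT than in BIC.DHT by a log2 difference of -0.27 (-0.63 to 0.09). The smallest unadjusted p was for BAX, lower in APA.VEH (69.2 and 47.4 TPM) than in ENZ.VEH (87.7 and 69.9 TPM) by 0.45 (log2 difference -0.45, 95% confidence interval -0.87 to -0.03, unadjusted p = 0.040, adjusted p = 1, limma). Differences of up to these bounds between the drugs are not excluded.

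Summed by role among the 10 genes described here, the BH3-only genes set DHT apart and the others did not. The 5 BH3-only genes summed to 38.4 and 49.8 TPM in DHT, 59.0 and 66.3 TPM in VEH and at least 51.3 TPM in every other library. The pro-survival sum was 245 and 216 TPM in DHT and 236 and 218 TPM in VEH. It was lowest in replicate 1 of ENZ.DHT (172 TPM) and APA.DHT (175 TPM). The ratio of this BH3-only sum to the pro-survival sum came to 0.157 and 0.230 in DHT and 0.250 and 0.304 in VEH. The second DHT library was not below all others in this ratio, since BIC.VEH replicate 1 had 0.223. These sums follow from the gene values above and were not tested. They leave out other members of the family, among them the BH3-only genes BMF, given below, and BAD. BAD alone had 129.78 and 86.83 TPM in VEH and 86.28 and 81.74 TPM in DHT, more than the 5 BH3-only genes together, so the ratio does not describe the whole class.

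**Figure D4:**
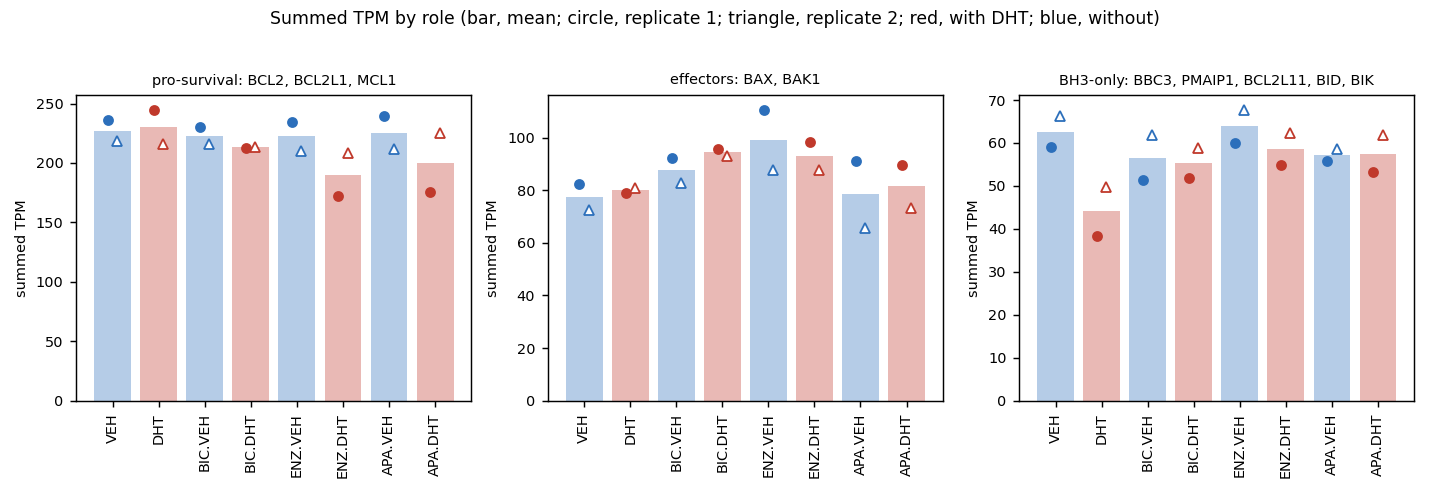
Summed TPM (vertical axis, starting at 0) of the pro-survival, effector and BH3-only genes in the 8 groups. Bars are means, circles replicate 1 and triangles replicate 2. The DHT bar is the lowest of the BH3-only panel, with libraries at 38.4 and 49.8 TPM.

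Of 13 further genes, 8 passed the filter on low values, and BMF was called lower and BCL2L12 higher in DHT against VEH (2 higher and 3 lower with the block). Of all genes tested, 3.63% were called higher and 6.64% lower (10.6% and 16.8% with the block). The median log2 fold change of the 8 was -0.16, beside -0.15 for the 9 genes above. The most abundant of the 13 was BNIP3L, a mitophagy receptor, with a median of 163 TPM, and BAD, a BH3-only gene, had a median of 87.9 TPM. BMF (chromosome 15, 40087890 to 40108879) is a BH3-only gene whose protein is bound to the cytoskeleton and released on loss of attachment. It had 35.3 and 29.7 TPM in VEH and 11.4 and 9.05 TPM in DHT, which is a log2 difference of -1.58 (SE 0.21, adjusted p = 0.00098 by limma). BCL2L12 (chromosome 19, 49665142 to 49673916), which overlaps IRF3 and has been described as an inhibitor of apoptosis, had 11.6 and 12.6 TPM in VEH and 21.3 and 29.8 TPM in DHT, which is a log2 difference of 1.00 (SE 0.17, adjusted p = 0.0038 by limma). Both kept their calls when any 1 of the 4 libraries was left out, but not with only DHT and VEH in the fit (limma adjusted p = 0.053 for BMF and 0.089 for BCL2L12).

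With each antiandrogen BMF and BCL2L12 were called the other way against DHT. Both genes were picked by their change in the same 2 DHT libraries, so these calls are no separate evidence. Of all genes tested, 3.13%, 9.65% and 8.36% were called with bicalutamide, enzalutamide and apalutamide. BMF had 27.95 and 22.55 TPM in BIC.DHT, 29.0 and 27.3 TPM in ENZ.DHT and 27.03 and 28.01 TPM in APA.DHT, higher than DHT by 1.23, 1.39 and 1.36 on the log2 scale (limma adjusted p = 0.011, 0.0024 and 0.0030). BCL2L12 stood between 11.7 and 15.6 TPM in these 6 libraries, with log2 fold changes of -0.77, -0.97 and -0.85 (limma adjusted p = 0.035, 0.0055 and 0.011). With bicalutamide, BMF lost its call without DHT replicate 2 (adjusted p = 0.115) or BIC.DHT replicate 1 (0.12), and BCL2L12 kept its call only when DHT replicate 1 was the library left out. BCL2L12 also lost its call without DHT replicate 2 with enzalutamide (0.057) and with apalutamide (0.105), and there without APA.DHT replicate 1 (0.0704). Fits of the 2 compared groups alone ended all 6 calls (limma adjusted p from 0.109 to 0.15 for BMF and from 0.198 to 0.26 for BCL2L12).

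**Figure D5:**
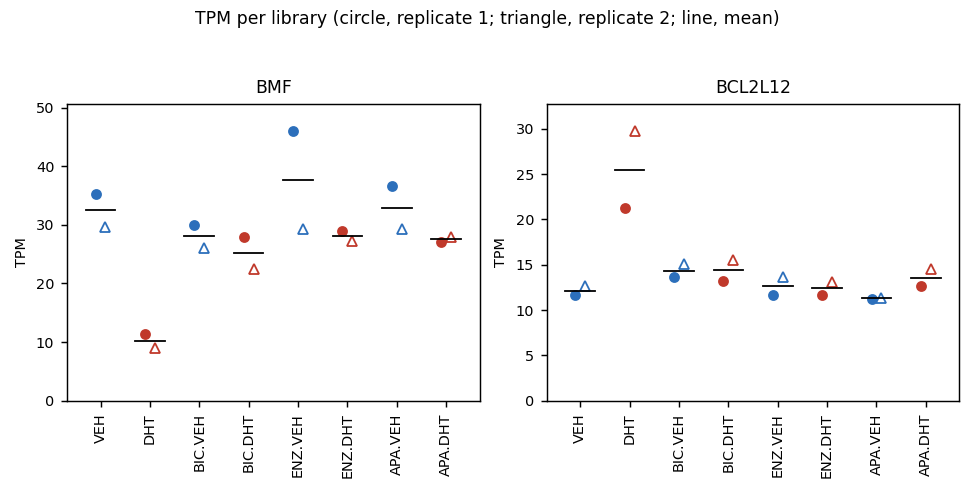
TPM (vertical axis, starting at 0) of BMF and BCL2L12 in the 8 groups, with circles for replicate 1, triangles for replicate 2, lines for means, red with DHT and blue without. The DHT libraries lie below all others for BMF (11.4 and 9.05 TPM) and above all others for BCL2L12 (21.3 and 29.8 TPM). Of all genes tested, 13.9% and 10.5% shared these positions. Both genes were picked by their change in DHT against VEH.

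The 25 genes of the caspase machinery and its inhibitors included death-receptor genes such as FAS and FADD, which act before BID. In DHT against VEH the 25 genes had 1 call (3 higher and 2 lower with the block), beside 10.3% of all genes tested (27.4% with the block). CASP6, an effector caspase, went from 24.3 and 21.2 TPM to 15.1 and 16.9 TPM, a log2 fold change of -0.48 (limma adjusted p = 0.036). This call ended under median-ratio scaling (0.108) and when any 1 of the 4 libraries was left out (0.0684 to 0.242). The median of the 25 was 0.045. Against DHT, each antiandrogen gave 0 called genes of 25, with 2, 6 and 5 at an unadjusted p below 0.05, and 3, 6 and 7 called lower with the block. Of all genes tested, 3.13%, 9.65% and 8.36% were called, or 13.3%, 29.2% and 27.3% with the block.

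A further 22 genes are commonly induced by p53, BBC3 and PMAIP1 not among them. Their median log2 fold change in DHT against VEH was -0.41, beside -0.098 for all genes tested. Of the 22, 5 had higher values in DHT, and 2 were called, both lower (9 lower and 1 higher with the block). The shares of all genes tested were again 10.3%, and 27.4% with the block. TP53I3, a quinone reductase gene, had 23.3 and 13.6 TPM in VEH and 6.01 and 3.93 TPM in DHT (log2 fold change -1.68, limma adjusted p = 0.014), a call that ended without VEH replicate 1 (0.132) or DHT replicate 2 (0.118). BTG2, an antiproliferative gene, had 45.0 and 51.0 TPM in VEH and 25.0 and 26.4 TPM in DHT (log2 fold change -0.87, limma adjusted p = 0.036), a call that ended without any 1 of the 4 libraries (0.119 to 0.164) and with no filter on low values (0.0691). TP53I3 was picked by its change in the same 2 DHT libraries, so its values against DHT are no separate evidence. It was higher than in DHT by 1.58 with enzalutamide and 1.68 with apalutamide (limma adjusted p = 0.021 and 0.016). With bicalutamide it was higher by 1.26, called only with the block (limma adjusted p = 0.0010, against 0.098 without it). The enzalutamide and apalutamide calls of TP53I3 ended without DHT replicate 2 (0.149 and 0.131), without replicate 1 of the combined group (0.151 and 0.0936) and with only the 2 groups in the fit (0.157 and 0.159), and the enzalutamide call also without DHT replicate 1 (0.051). Enzalutamide gave 2 higher calls among the 22 (8 with the block) and apalutamide 1 (5 higher and 1 lower with the block). Of all genes tested, 4.74% and 4.25% were called higher with these 2 drugs. In either direction the shares were 9.65% and 8.36%, or 29.2% and 27.3% with the block. With bicalutamide 0 of the 22 were called against DHT (6 at an unadjusted p below 0.05, 4 higher and 1 lower with the block), beside 3.13% of all genes tested (13.3% with the block). BBC3 moved the way the median of these genes did in DHT against VEH, and PMAIP1 did not. With only DHT and VEH in the fit, CASP6, TP53I3 and BTG2 were not called (limma adjusted p = 0.15, 0.086 and 0.061). Of 14 target genes of ATF4 and CHOP, stress factors that can also induce PMAIP1 and BBC3, 0 were called in DHT against VEH (1 at an unadjusted p below 0.05, 2 higher with the block), with a median of 0.033. Beside these stand the same 10.3% and 27.4% of all genes tested.

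Across the 16 libraries, the genes most like BBC3 were MST1 (Pearson's r = 0.94), MXRA8 (0.93) and AL691432.4 (0.93). Those most like PMAIP1 were EFCAB12 (0.87), GARS1, the glycyl-tRNA synthetase gene (0.86), and AC105285.1 (0.86). These coefficients describe 16 libraries that share 8 treatments, and the DHT pair alone can set them. Among the 9 genes, the pair most alike was MCL1 and BCL2L11 (r = 0.86), both low in replicate 1 of ENZ.DHT and APA.DHT, and BBC3 and PMAIP1 were opposed (r = -0.65).

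Several of the 9 genes differed between the replicate numbers. Over the 8 groups, replicate 1 was lower than replicate 2 for BID by a log2 difference of -0.34 (limma adjusted p = 0.0020), for BCL2L11 by -0.28 (0.041) and for BIK by -0.22 (0.029). BAX was higher in replicate 1 by 0.21 (0.029). Thus 4 of 9 genes differed between replicate numbers, against 40.2% of all genes tested.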

How the data were processed

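The 16 libraries were stranded, polyA-selected and sequenced as paired reads. Per the submitters' processing notes, the authors used FastQC 0.11.9, Trim Galore 0.6.5, STAR 2.7.2b and RSEM 1.3.3 with GRCh38. The deposited values are TPM per gene symbol, 1 column per library. TPM keeps no read depth, so no counting interval could be given and precision was judged from replicate spread.

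Groups came from the labels. Values were transformed as log2(TPM + 1), and genes were kept when 2 or more libraries had a TPM of 1 or more. limma 3.58.1 (R 4.3.3, trend option) fitted 8 group means over the 16 libraries, with Benjamini-Hochberg adjustment over all genes within each of 19 contrasts and calls below 0.05. Of the table's genes, 26439 were 0 in every library. The fit was tested on simulated data.

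Replicate numbers were taken to pair the libraries because the difference of replicate 1 and replicate 2 correlated above 0.1 in all 28 pairs of groups (lowest 0.204, median 0.427). The main fit did not use this pairing, so its SEs, confidence intervals and leave-one-out values include the difference between replicate numbers. For BID in DHT against VEH, the SE was 0.25 without the block and 0.13 with it. Blocked values are given where they change a call.

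The members and gene lists were chosen with earlier results of these data known. All members are named, with the 3 genes most correlated with each called member, up to 4 called genes of each list with the largest fold change in DHT against VEH, and KLK3 among the treatment checks. Alternatives were another pseudocount (0.1), no filter, median-ratio scaling, a constant prior variance, the block, only the compared groups, and leaving out each library. Gene positions came from RefSeq on GRCh38.p14, and promoter windows were on the same build. Figures used Python 3.11.15.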

Additional observations from a re-analysis of the deposited data

Results flagged for a closer look

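The response to DHT with an antiandrogen minus the response without one was set apart for 4 of the 9 genes. For BBC3 this difference was 0.86 with bicalutamide, 0.83 with enzalutamide and 0.82 with apalutamide on the log2 scale. For BID it was 0.74, 0.72 and 0.88. These 6 differences passed the interaction test with the replicate block (limma adjusted p from 0.0139 to 0.0404) and not without it (0.187 to 0.511).

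For BCL2L1 the difference was -0.22 with bicalutamide and -0.38 with enzalutamide. Both replicates were higher with DHT when no drug was present and both were lower with DHT under the drug, but the interaction did not pass with the block (limma adjusted p = 0.573 and 0.248). For BIK it was 0.66 with apalutamide, where both replicates were lower with DHT alone and higher with DHT under the drug, again not called (limma adjusted p = 0.0556 with the block and 0.332 without it).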

How the results depend on the processing

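Of 191 fold changes, each kept its direction and its side of the threshold under a pseudocount of 0.1 and under a constant prior variance. Without the filter on low values 2 lost their call, and under median-ratio scaling 3 lost and 1 gained one, with 13 sign changes among values not called. The number of the 9 genes called in DHT against VEH, 2, became 4 with the replicate block, 1 after median-ratio scaling, 0 with only the compared groups in the fit, and 0 to 1 when 1 library was left out. For ENZ.DHT against DHT, the 1 call became 5 with the block, 0 with only the compared groups and 0 to 1 without 1 library. For APA.DHT against DHT, the 1 call became 4 with the block, 0 without the filter, 0 with only the compared groups and 0 to 1 without 1 library. For BIC.DHT against DHT and for each of the 3 interactions, 0 became 2 with the block. The block changed no call in the other 12 comparisons. It turned 21 values into calls and ended none. The fit with only the compared groups ended 17, which were all the calls of the main fit among the 191 values. Where 1 library was left out, the lone library is assumed to vary like the others. Of 872 such values, 134 changed sign, none of them called. Most calls of the main fit ended in at least 1 of these fits. Exceptions were BMF in DHT against VEH and in ENZ.DHT and APA.DHT against DHT, and BCL2L12 in DHT against VEH. No called value reversed. With 2 libraries per group and no depth in TPM, differences among genes near 1 TPM, BCL2 above all, could not be resolved.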
